A study of Mus musculus with 8 samples.

Results

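The comparison described here is that of c-Jun mutant with control mice in uncut sciatic nerve, the intact nerve of the side that was not operated. Its members were chosen by the sample titles, and they are 4 of the 8 arrays of the series: 2 of control uncut nerve (titles CTRL.uncut, genotype label WT) and 2 of mutant uncut nerve (titles KO.uncut, genotype label c-Jun KO). All 4 come from adult mice whose other sciatic nerve had been transected 7 days earlier, so the uncut nerve is a contralateral nerve of an operated animal and not that of an untouched one. Each array holds total RNA of 10 mm segments pooled from 4 or 6 mice, and the design text calls both pools of a group independent samples. The p-values below therefore measure the spread between pools. The other 4 arrays hold the cut nerves of the same genotypes and are used here for the estimate of the spread and, where said, for comparison.

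The allele is absent from the labels, as are the Cre driver, strain, sex and age beyond adult. The line of the published study is known as a floxed Jun deleted by a Cre that acts in Schwann cells and leaves the gene whole in the other cells of the nerve. In the labels the tissue is given as Schwann cells, and a description field says schwannoma cells, but the protocol takes segments of whole nerve. Markers of other cells were plain on all 4 uncut arrays: the fibroblast receptor Pdgfra (11.40 to 11.53 on the log2 scale), the macrophage receptor Csf1r (11.58 to 11.81), the fat cell hormone Adipoq (13.53 to 13.90) and the muscle creatine kinase Ckm (11.91 to 12.85) all lay above the 75th percentile of their arrays (8.40 to 8.45). Every value is of that mixture, in which fewer cells of a type and less RNA per cell cannot be told apart.

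c-Jun is a basic leucine zipper protein that pairs with itself or with Fos and Atf proteins to form AP-1, a dimer that binds short palindromes in promoters and enhancers. Its kinase is Jnk. In peripheral nerve c-Jun is low in myelinating Schwann cells, where Egr2 (Krox20) drives the myelin genes, and it rises after injury, when Schwann cells drop the myelin programme and turn to the repair of axons. The comparison of uncut nerves asks how genotype bears on a nerve that was not itself cut, although the animals had been operated on the other side.

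Genotype was called for no gene of uncut nerve in the fit over all 8 arrays, while some alternative fits called 1 to 9 genes. Of 12093 genes tested, 0 (0%) passed a Benjamini-Hochberg adjusted p of 0.05 in limma's two-sided test, with a smallest adjusted p of 0.102, and 322 (2.66%) had an unadjusted p under 0.05. Among those 322 the mutant was higher for 232 and lower for 90. In cut nerve the same fit called genotype for 132 genes (1.09%). The median difference over all genes was 0.03 and the median absolute difference 0.08 on the log2 scale, and 11954 genes (98.9%) differed by less than 0.5. All differences here are the mean of both mutant arrays minus that of both control arrays, in log2 units, where 1 is a 2-fold change. With 2 against 2 arrays an exact permutation test of a single gene cannot go below p = 0.333, so the tests rest on the spread shared by all 4 groups.

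Arrays of different genotypes resembled each other about as closely as arrays of the same genotype. Across the genes tested the pair of control uncut arrays correlated with r = 0.989 and the pair of mutant arrays with r = 0.985, while the 4 pairings across genotype gave 0.983 to 0.987. Genes at least 2-fold apart numbered 67 within the control pair and 107 within the mutant pair, and every pairing across genotype had at least 64 and fewer than 107. Between the group means 41 genes (0.339%) were at least 2-fold apart, 26 higher and 15 lower in the mutant, and 0 of the 41 passed the test, with an unmoderated statistic and with trended and robust moderation as well. In 38 of them the groups did not overlap. Over all genes the mutant arrays both lay above the control arrays for 2159 (17.9%) and both below for 1119 (9.25%).

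**Figure D1:**
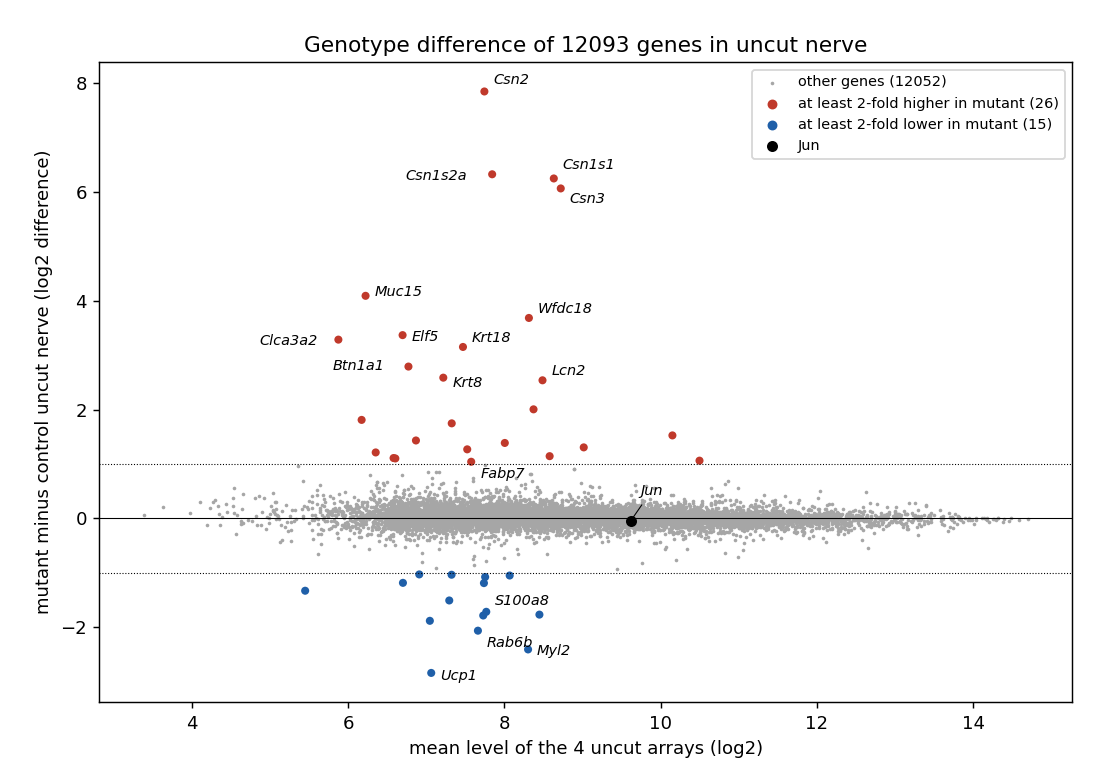
Mean level of the 4 uncut arrays (x axis, log2) against the difference between mutant and control uncut nerve (y axis, log2 difference) for 12093 genes. Dotted lines mark 2-fold differences, 26 genes lie above them (red) and 15 below (blue), none passed the adjusted test, and Jun (black) lies at -0.04.

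Jun itself is the gene the mutation targets. Its level was 9.58 and 9.70 in the control pools and 9.62 and 9.59 in the mutant pools. The mutant values lie between those of the controls, and the difference was -0.04 (SE 0.14, 95% interval -0.37 to 0.29, limma adjusted p = 0.9997). A second probe set read 8.90 and 9.37 in control and 9.08 and 9.35 in mutant nerve, a difference of 0.08. In cut nerve Jun was lower in the mutant by a difference of -1.33 (adjusted p = 0.0087), but the test of whether the genotype difference itself varied between uncut and cut nerve did not pass (adjusted p = 0.0726). Whether either probe set lies in the deleted part of the gene, and how much Jun RNA of the segment comes from cells that keep the gene, cannot be read from the labels. The values of uncut nerve therefore do not check the genotype labels.

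The promoter of Jun is shown because c-Jun is known to act on its own gene through an AP-1 site of the CRE-like kind. The sequence is that of RefSeq on build GRCm38.p6, chr4:95052223-95052472, minus strand, and covers the 250 bases before the start of the transcript. A search for TGANNTCA, which reads the same on both strands, found 1 match, 45 bases before the start, printed in capitals.
Jun: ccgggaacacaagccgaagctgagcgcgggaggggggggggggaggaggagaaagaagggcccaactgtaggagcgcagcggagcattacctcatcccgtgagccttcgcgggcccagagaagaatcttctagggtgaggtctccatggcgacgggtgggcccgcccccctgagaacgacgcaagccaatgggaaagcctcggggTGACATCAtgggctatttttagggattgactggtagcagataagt
The same motif occurs in 11.9% of 32851 promoter windows of that length, and the 7-base AP-1 motif TGANTCA in 6.75%. The 558 tested genes with TGANTCA had a median difference of 0.02, and the 9171 tested genes whose windows lack it had 0.03. At least 2-fold differences were found in 2 (0.358%) and 31 (0.338%) of them. A match describes letters only, not binding.

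The precision of the comparison sets how small a difference it could miss. The standard error of a gene had a median of 0.12, and the 95% interval reached a median of 0.29 to either side of the difference. For 11761 genes (97.3%) the whole interval lay within 2-fold in both directions, for 9358 (77.4%) within 0.5 and for 610 (5.04%) within 0.25. The remaining 332 genes could be 2-fold apart or more by these arrays. Most genes could likewise be 0.25 apart or more, since few intervals lie within that bound. The intervals are not adjusted for the number of genes, and a call asks for more. Fabp7, with a difference of 1.04 (SE 0.14), had a limma adjusted p of 0.257. Krt8, at 2.59 (SE 0.27), had 0.102. Differences well above 0.25 could therefore go uncalled with this number of arrays.

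**Figure D2:**
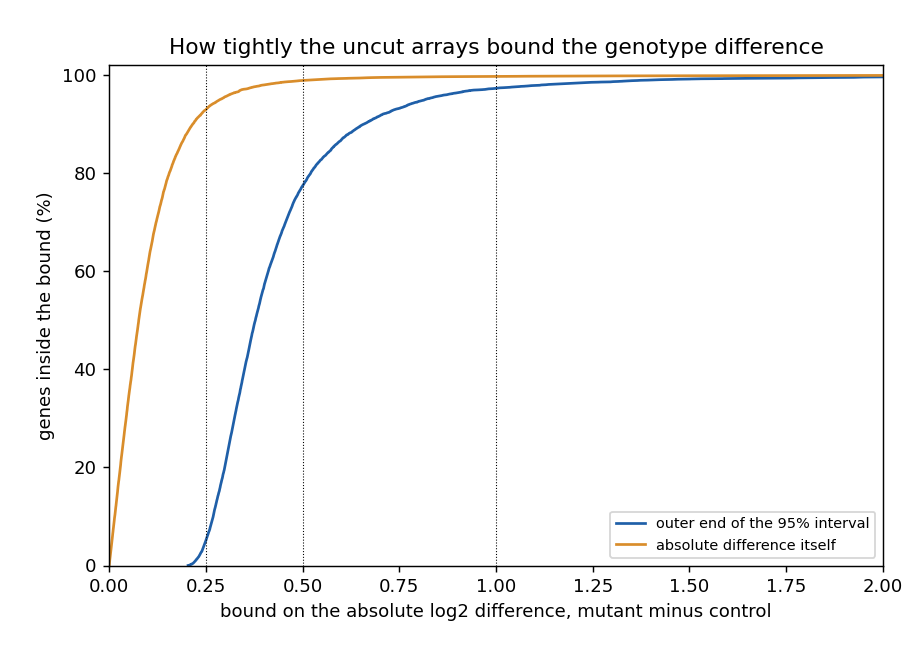
Share of the 12093 genes (y axis, %) whose absolute difference (orange) or the outer end of whose 95% interval (blue) lies inside a given bound (x axis, log2 difference). The blue line passes 5.04% at 0.25, 77.4% at 0.5 and 97.3% at 1.

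Myelin sheath genes had values close together in both genotypes. Of 20 listed, 16 were measured, 0 passed, and the median difference was -0.05 against 0.03 over all genes. Mbp, the basic protein that compacts the sheath, read 14.45 and 14.51 in control and 14.43 and 14.43 in mutant nerve, a difference of -0.05 (95% interval -0.36 to 0.26). Pmp22, the membrane protein whose gene dosage is tightly set in nerve, read 14.56 and 14.65 against 14.49 and 14.66. Those of Pmp22 overlap, and those of Mbp differ by less than 0.1. The members ran from Cdh1 (E-cadherin of the outer sheath, -0.21) to the tetraspanin Tspan2 (0.24), 14 negative and 2 positive, and all 16 intervals lay within 2-fold. Cdh1 is a case where the genotype difference itself varied with injury: it was -0.21 in uncut nerve and 2.44 in cut nerve, where the mutant was called higher (interaction adjusted p = 0.0365). Both mutant arrays lay below both controls for 4 members, against 9.25% of all genes, and above them for 1, against 17.9%.

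Lipid synthesis genes, which serve the growth of the sheath, were centred on 0. Of 26 listed genes 23 were measured and 0 passed, with a median of 0.02 and a range from -0.20 for Ugt8a, the enzyme of galactocerebroside synthesis, to 0.24 for the fatty acid elongase Elovl6. Hmgcs1, an early enzyme of cholesterol synthesis, read 13.38 and 13.55 in control and 13.16 and 13.60 in mutant nerve. The fatty acid synthase Fasn was at 12.76 and 13.06 in control and 12.83 and 13.41 in mutant nerve, with an interval of -0.87 to 1.30 that is the widest of the list. Intervals within 2-fold were found for 21 of the 23.

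Genes of Schwann cell identity lay slightly lower in the mutant without passing the test. Of 19 listed, 16 were measured, 12 negative and 4 positive, with a median of -0.13. Sox10, which holds cells in the lineage, read 10.98 and 11.16 in control and 10.75 and 11.30 in mutant nerve, so the groups overlap. Egr2, the driver of myelination, read 11.86 and 11.87 against 11.59 and 11.60, a difference of -0.27 (SE 0.09, 95% interval -0.48 to -0.06, limma adjusted p = 0.9997). Cdh19, an adhesion molecule of Schwann cells and their precursors, read 12.12 and 12.04 against 11.73 and 11.70 (-0.37, 95% interval -0.63 to -0.11, adjusted p = 0.9997). A second Egr2 probe set read 11.79 and 11.85 in control and 11.30 and 11.34 in mutant nerve, a difference of -0.50 that did not pass. For Egr2 and Cdh19 the arrays of the mutant lie below those of the control, with gaps larger than the spread within either pair. The same order was found for 6 of the 16 members, against 9.25% of all genes. The neuregulin receptor Erbb3 (-0.14), the calcium-binding protein S100b (-0.17) and the ligand Dhh (-0.17), a signal from Schwann cells to the perineurium, had intervals that include 0.

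Non-myelinating (Remak) Schwann cells wrap small axons, and their markers were also lower on average. All 9 measured of 12 listed were negative, with a median of -0.13, and 0 passed. The adhesion molecules Chl1 (-0.33, 95% interval -0.67 to 0.00) and L1cam (-0.31) stood lowest. Ncam1 read 8.72 and 8.69 in control and 8.48 and 8.67 in mutant nerve. The neurotrophin receptor Ngfr read 7.93 and 7.83 against 7.46 and 7.97, and the lower mutant pool is the first. The growth cone protein Gap43 read 6.36 and 6.19 against 6.37 and 6.14, under the median of all 4 arrays (6.61 to 6.64). All 9 intervals lay within 2-fold, and 3 within 0.5.

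At the node of Ranvier and along the internode, 17 of 20 listed genes of channels and axon contact were measured, 13 negative and 4 positive, with a median of -0.10 and 0 passing. Cntn1, a contactin of axon and glia contact, stood furthest out. It read 8.38 and 8.36 in control and 7.57 and 7.70 in mutant nerve, a difference of -0.73 (SE 0.17, 95% interval -1.12 to -0.34, adjusted p = 0.9997), and its second probe set gave -0.99. Neither genotype overlaps the other on either probe set. The potassium channel Kcna1 read 12.03 and 12.21 against 11.40 and 12.18, a gap that rests on the first mutant pool. Kcnj10, an inwardly rectifying potassium channel of glia, read 5.98 and 5.83 against 5.89 and 5.72. The test of unequal genotype difference passed for Kcnj10: it was -0.10 in uncut and 1.90 in cut nerve (interaction adjusted p = 0.0443). Kcnj10 passed the filter on low values only through the mutant cut pools (8.24 and 7.79), where it is high. That test therefore supports little by itself.

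**Figure D3:**
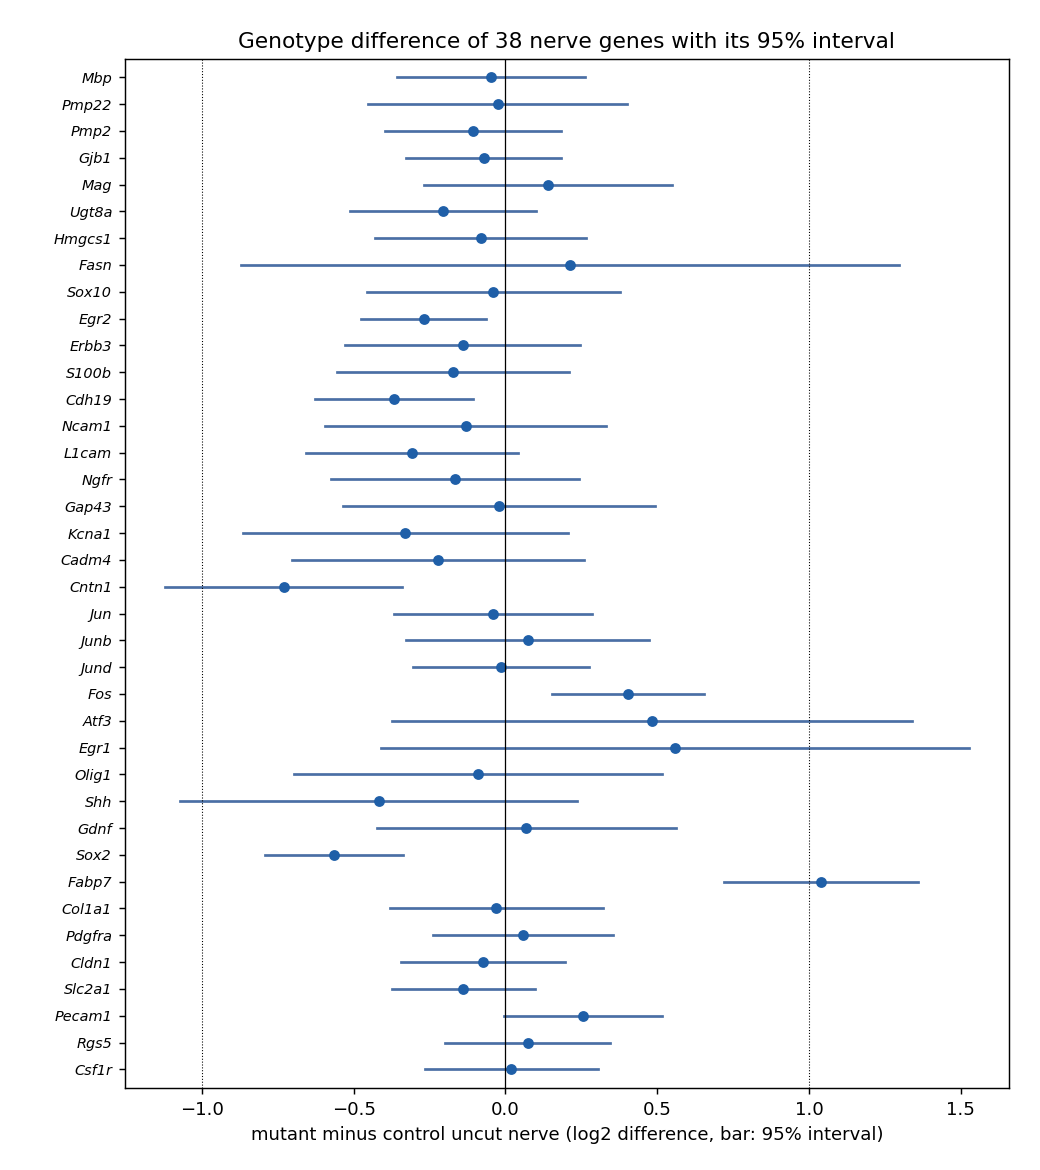
Difference between mutant and control uncut nerve (x axis, log2 difference) with its 95% interval (bar) for 38 genes chosen for their role in nerve, one gene per row. Most intervals include 0, and those of Fasn, Shh, Atf3, Egr1, Cntn1 and Fabp7 cross a dotted 2-fold line; Fabp7 (1.04), Fos (0.40), Sox2 (-0.56), Cntn1 (-0.73), Cdh19 (-0.37) and Egr2 (-0.27) are those whose interval leaves out 0, and none of these passed the adjusted test.

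Genes known for injury and repair were mostly low in both genotypes. Of 20 listed 17 were measured and 8 of them lay above the array median on all 4 uncut arrays. The median difference was 0.01, with 9 positive and 8 negative and 0 passing. Gdnf, a trophic factor for neurons, read 4.70 and 4.40 in control and 4.50 and 4.74 in mutant nerve, and the transcription factor Olig1 read 4.68 and 4.73 against 4.49 and 4.74. These values are below the 25th percentile of every uncut array (4.98 to 5.01), a level at which arrays resolve differences poorly. Shh, the hedgehog ligand that denervated Schwann cells make, was measurable in uncut nerve. It read 9.38 and 9.70 in control and 8.76 and 9.49 in mutant nerve, a difference of -0.42 (95% interval -1.07 to 0.24) with overlapping arrays. In cut nerve the same genes differed by -2.04 (Gdnf), -2.71 (Olig1) and -1.96 (Shh), all called there. The tests of unequal difference gave interaction adjusted p = 0.0564, 0.0558 and 0.322, so none of the 3 passed. It passed for the growth factor Btc (0.13 in uncut and -1.50 in cut nerve) and for Ucn2, a peptide of the corticotropin-releasing family (0.38 and -1.67), each with an interaction adjusted p of 0.0365.

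A pair of this list stood apart from the others. Sox2, which holds Schwann cells in an immature state, read 8.44 and 8.44 in control and 7.94 and 7.81 in mutant nerve (-0.56, SE 0.10, 95% interval -0.79 to -0.34, limma adjusted p = 0.443). Fabp7, the brain lipid-binding protein of immature glia, read 7.15 and 6.97 against 8.25 and 7.94 (1.04, SE 0.14, 95% interval 0.72 to 1.36, adjusted p = 0.257). Both genes separate the genotypes by several times the spread within a pair, in opposite directions, and neither passed. Fabp7 also read 8.93 and 8.73 in mutant and 6.62 and 6.52 in control cut nerve, where it was called higher in the mutant (2.26, adjusted p = 0.0020). Its genotype differences in uncut and cut nerve were not shown to differ (interaction adjusted p = 0.0794). Of 13 measured trophic factors of 20 listed 0 passed, with a median of 0.07 and a range from -0.24 (Clcf1) to 0.25 (Pdgfb), and the growth factor Igf1 read 11.14 and 11.13 against 11.31 and 11.10.

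None of the measured partners of c-Jun passed the test. Of 23 listed AP-1 members and immediate early genes, 22 were measured, 16 positive and 6 negative, with a median of 0.09 and 0 passing. The related Junb read 7.92 and 7.92 in control and 8.21 and 7.77 in mutant nerve, and Jund read 11.00 and 11.31 against 11.10 and 11.19. Both differ by less than 0.1 between group means (95% intervals -0.33 to 0.47 and -0.30 to 0.28). Fos, the main partner in AP-1, read 10.66 and 10.46 against 11.03 and 10.89 (0.40, 95% interval 0.15 to 0.65, adjusted p = 0.9997). The stress factor Atf3 read 7.86 and 8.57 against 8.12 and 9.27, and Egr1 read 10.40 and 11.03 against 10.74 and 11.80. For Atf3 and Egr1 the second pool is higher than the first in both genotypes, and the groups overlap. Among 14 measured genes of Jnk signalling and known AP-1 targets, of 18 listed, the median was -0.01 and the range -0.05 to 0.20. The kinase genes Mapk8 (0.01) and Mapk9 (-0.04) and the receptor Cd44 (-0.01) are members, and all 14 intervals lay within 2-fold.

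Around Jun on chromosome 4 the 8 genes on each side that were measured, ordered by the RefSeq table of GRCm38.p6, had a median difference of 0.00, 8 positive and 8 negative, and 0 passed. They ran from Cyp2j6 (-0.17) to Hook1 (0.48). Cyp2j13, a cytochrome P450 of this cluster, read 6.73 and 6.41 in control and 6.99 and 7.01 in mutant nerve (0.43).

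Extracellular matrix genes of the nerve lay close to 0. All 20 listed genes were measured, 18 intervals lay within 0.5 and all 20 within 2-fold, with a range of -0.13 (the laminin chain Lama2) to 0.11 (Fbln2). Col1a1, a chain of type I collagen, read 11.78 and 12.16 in control and 11.81 and 12.07 in mutant nerve. Decorin (Dcn) read 14.32 and 14.29 against 14.25 and 14.31. Fibroblast markers (13 measured of 14) had a median of -0.03, with 10 negative. Those of the perineurium (12 of 12), the sheath of flat cells around each fascicle, had a median of -0.03, with the junction protein Cldn1 at -0.07 and the glucose transporter Slc2a1 at -0.14. The exception in that list is the keratin Krt19 (0.81), which is also an epithelial gene.

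Blood vessel and mast cell genes lay a little higher in the mutant. Of 14 endothelial markers 13 were positive, with a median of 0.25 against 0.03 over all genes, and 0 passed (5 had an unadjusted p under 0.05). The arrays of 9 members did not overlap with the mutant higher, against 17.9% of all genes. Flt1, a receptor of Vegf, read 8.74 and 8.81 in control and 9.11 and 9.40 in mutant nerve (0.48, 95% interval 0.17 to 0.79). Pecam1, which joins endothelial cells, read 9.32 and 9.32 against 9.70 and 9.46. For both genes each mutant pool lies above each control pool. All 12 genes of smooth muscle and pericytes were positive, with a median of 0.23 and the myosin Myh11 highest at 0.43, but 2 of 12 did not overlap. Mast cell genes were positive in 10 of 11 cases, with a median of 0.24, and in 8 the mutant pools were both higher. The receptor Kit read 8.47 and 8.38 against 8.96 and 8.78 (0.44). The protease Cpa3 read 11.07 and 11.01 against 11.34 and 11.22.

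Macrophage genes were centred on 0. Of 22 listed 21 were measured, 12 positive and 9 negative, with a median of 0.01. The receptor Csf1r read 11.58 and 11.81 in control and 11.81 and 11.62 in mutant nerve. The scavenger receptor Cd163 stood lowest (-0.45), from 1 mutant pool at 9.31 beside 10.07, and the endotoxin receptor Cd14 highest (0.49). Antigen display and interferon genes (15 of 20) had a median of 0.07, lymphocyte genes (6 of 13) 0.09 and cytokines and chemokines (14 of 18) 0.05. Ccl5, a chemokine of T cells, was the highest of the last group at 0.56. Cell cycle genes (23 of 25) had a median of 0.07, and 8 of the 23 were above the array median on all 4 uncut arrays. Mki67, made in dividing cells, read 6.43 and 6.82 against 6.93 and 6.55. The 11 measured reference genes of 14 listed had all intervals within 0.5, with Actb at 14.34 and 14.48 in control and 14.40 and 14.38 in mutant nerve.

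**Figure D4:**
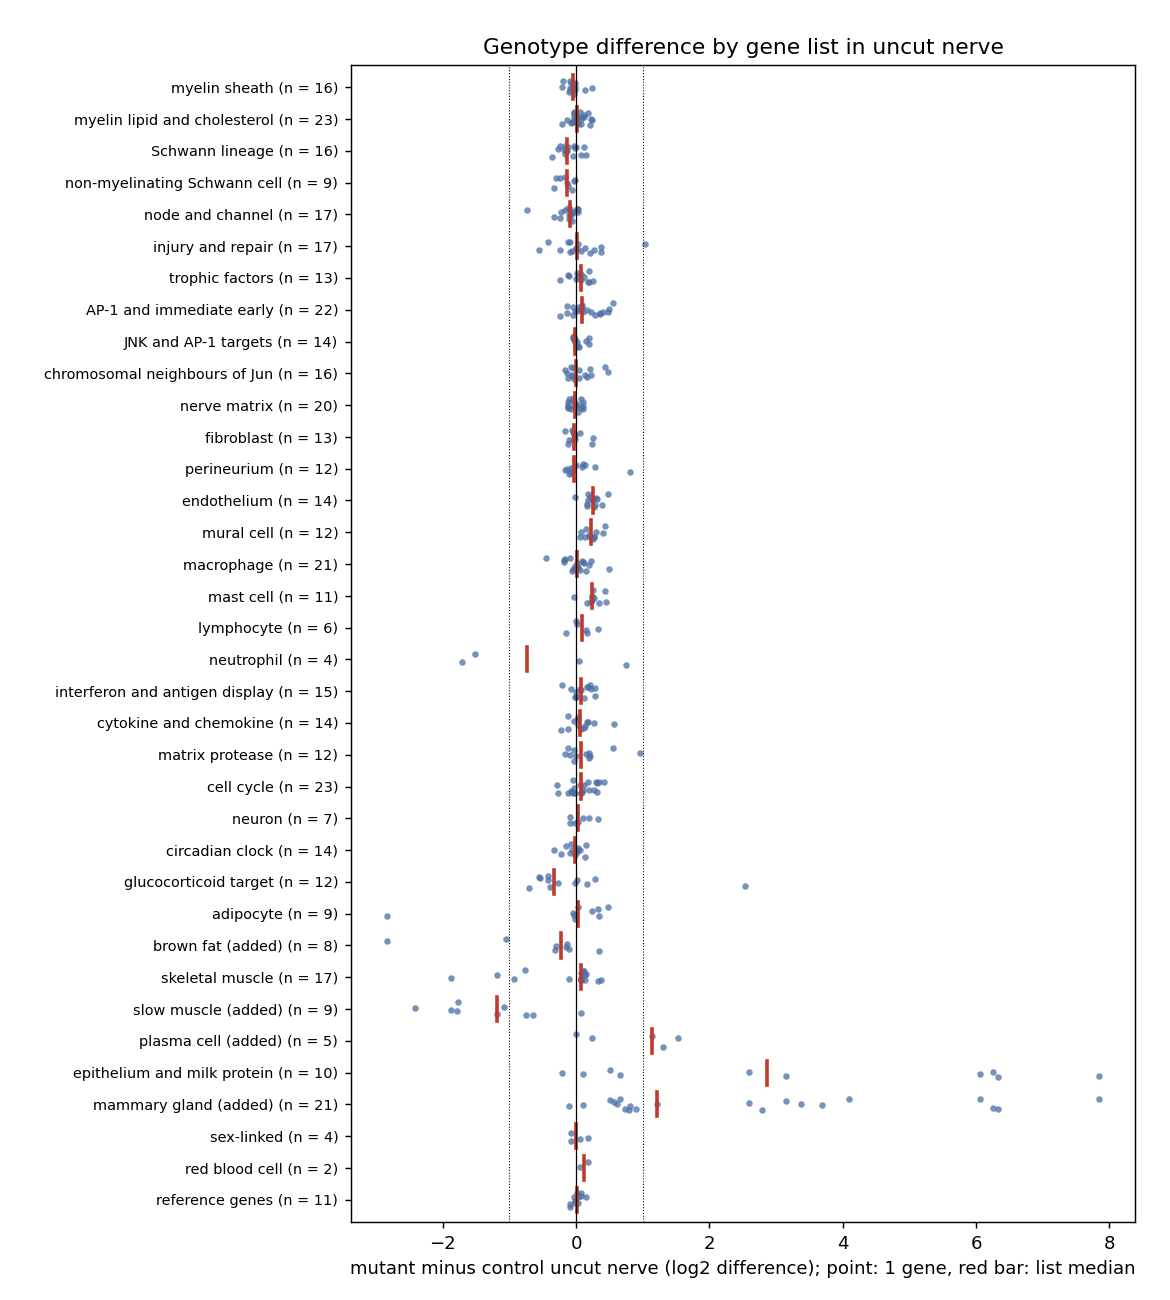
Difference between mutant and control uncut nerve (x axis, log2 difference) of each measured gene (blue point), by list, with the list median (red bar) and 2-fold bounds (dotted). The medians of the myelin, Schwann cell, matrix and macrophage lists lie between -0.13 and 0.02, while the lists of milk proteins and mammary gland reach 7.85 and those of brown fat and slow muscle reach -2.84 and -2.41.

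The genes at least 2-fold apart were led by genes of other tissues. The 26 higher genes were led by the milk caseins, which are secreted by the mammary gland. Csn2 (beta-casein) read 3.50 and 4.14 in control and 13.01 and 10.32 in mutant nerve, a difference of 7.85 (SE 1.94, 95% interval 3.32 to 12.37, limma adjusted p = 0.9997). Csn1s1 read 5.74 and 5.28 against 12.10 and 11.42 (6.25), Csn1s2a read 4.71 and 4.65 against 12.83 and 9.18 (6.32), and Csn3 (kappa-casein) read 5.48 and 5.90 against 11.48 and 12.03 (6.06). Every casein named here was far higher on both mutant pools than on either control pool, and the control values of Csn2 and Csn1s2a are below the 25th percentile of their arrays, where a fold is uncertain. The same genes also varied within the cut groups, and that spread enters the shared error: Csn2 read 11.47 and 7.03 in control cut and 3.69 and 9.15 in mutant cut nerve. A fit on the 4 uncut arrays alone, whose error rests on 2 pairs, called 9 genes, all higher in the mutant: Csn3, Csn1s1, Elf5, Clca3a2, Krt18, Krt8, Fcgbp, Irx2 and Aldoc. All of these but Fcgbp lay below the array median on both control uncut pools, and Irx2 passed the filter on low values only through the mutant uncut pools, where it is high.

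The casein genes sit side by side on chromosome 5 and are driven in the gland by prolactin through Stat5. The promoter windows of Csn2 and Csn1s1 are shown as examples of the caseins, with the motif TTCNNNGAA, a palindrome of the kind Stat proteins bind, in capitals. Each covers the 250 bases before the start on build GRCm38.p6 from RefSeq: Csn2 at chr5:87699426-87699675, minus strand, and Csn1s1 at chr5:87665958-87666207, plus strand.
Csn2: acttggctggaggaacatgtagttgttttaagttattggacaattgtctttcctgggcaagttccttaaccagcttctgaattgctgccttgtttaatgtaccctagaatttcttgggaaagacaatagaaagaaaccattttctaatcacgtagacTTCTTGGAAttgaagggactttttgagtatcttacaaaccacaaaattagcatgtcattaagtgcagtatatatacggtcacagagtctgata
Csn1s1: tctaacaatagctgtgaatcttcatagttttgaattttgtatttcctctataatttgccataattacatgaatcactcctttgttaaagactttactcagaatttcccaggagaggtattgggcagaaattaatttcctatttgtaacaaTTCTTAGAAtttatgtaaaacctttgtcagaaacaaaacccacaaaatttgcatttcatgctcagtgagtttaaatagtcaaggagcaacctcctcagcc
The match begins 93 bases before the start in Csn2 and 100 before it in Csn1s1. It reads the same on both strands and occurs in 7.02% of the 32851 windows. At least 2-fold differences were found in 5 of 689 tested genes with the motif (0.726%) and in 28 of 9040 without it (0.31%). The motif was chosen for the caseins, and Csn2 and Csn1s1 are among the 5, so these shares support nothing by themselves.

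Other genes of glandular epithelium stood beside the caseins. The mucin Muc15 (4.09), the whey-type protein Wfdc18 (3.68), Elf5, a transcription factor of the milk-secreting cell (3.37), and Btn1a1, the butyrophilin of milk fat globules (2.79), were all higher on both mutant pools. Muc15, and Clca3a2 named next, lay under the 25th percentile of both control arrays, where the size of a difference is uncertain. Muc15 passed the filter on low values only through the mutant uncut pools, where it is high, so its difference supports little by itself. The simple epithelial keratins had the smallest p-values of all genes. Krt18 read 6.05 and 5.75 in control and 8.79 and 9.31 in mutant nerve (3.15, SE 0.33, 95% interval 2.39 to 3.91, adjusted p = 0.102). Krt8, with which Krt18 forms filaments, read 5.73 and 6.13 against 8.54 and 8.48 (2.59, SE 0.27, 95% interval 1.96 to 3.21, adjusted p = 0.102), and its 2 other probe sets gave 2.81 and 2.79. Both keratins passed without control cut replicate 1 and without control cut replicate 2 (adjusted p = 0.0443 each time), and Krt8 passed with the mean of its probe sets (adjusted p = 0.0451). Clca3a2, a chloride channel regulator of epithelia, read 3.81 and 4.66 against 7.35 and 7.68 (3.28, adjusted p = 0.304).

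The epithelial genes were then read as a group. From a list of 26 mammary gland genes written after these values had been seen, 21 were measured, 20 positive, and 19 did not overlap with the mutant higher, against 17.9% of all genes. The list was chosen on these arrays, and some members, such as Krt5, passed the filter only through the mutant uncut pools, so these counts support nothing by themselves. Its members' linear signals summed to 11.54 and 11.58 (log2) in control uncut, 14.96 and 13.82 in mutant uncut, 13.73 and 12.77 in control cut and 12.37 and 13.24 in mutant cut nerve. The first mutant uncut pool was thus highest and both control uncut pools lowest of the 8. In a shorter list of 12 epithelial and milk genes 10 were measured, with 9 positive. The keratins Krt5 (0.65), Krt7 (0.62) and Krt19 (0.81) and the basal cell factor Trp63 (0.79) had positive differences that did not pass the test, while the general epithelial gene Epcam (0.11) and Xdh (-0.11), a milk fat globule protein found in many tissues, were near 0. Csn1s2b, Wap, Glycam1 and Krt14 did not pass the filter on low values. Xist, expressed from the inactive X chromosome, read 12.09 and 12.41 in control and 12.37 and 12.48 in mutant nerve, and the Y-linked genes Eif2s3y, Kdm5d and Uty lay below the 25th percentile of all 4 arrays. The part of gland tissue in the segments was not tested.

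The genotype difference itself differed between uncut and cut nerve for 20 genes in all (0.165%), some of them among the genes above. Krt8 differed by 2.59 in uncut and -0.66 in cut nerve (interaction adjusted p = 0.0365), where it read 9.18 and 9.92 in control and 8.63 and 9.17 in mutant pools. Clca3a2 differed by 3.28 and -2.38 (interaction adjusted p = 0.037). The protease Adamts1 read 9.61 and 9.68 in control and 10.17 and 10.23 in mutant uncut nerve (0.55, adjusted p = 0.399) and differed by -0.58 in cut nerve (interaction adjusted p = 0.0365). Adamts1 is known in blood vessels and matrix. In cut nerve Adamts1 read 10.79 and 10.78 in control pools and 10.17 and 10.23 in mutant pools, so the mutant pools stood where they did in uncut nerve.

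**Figure D5:**
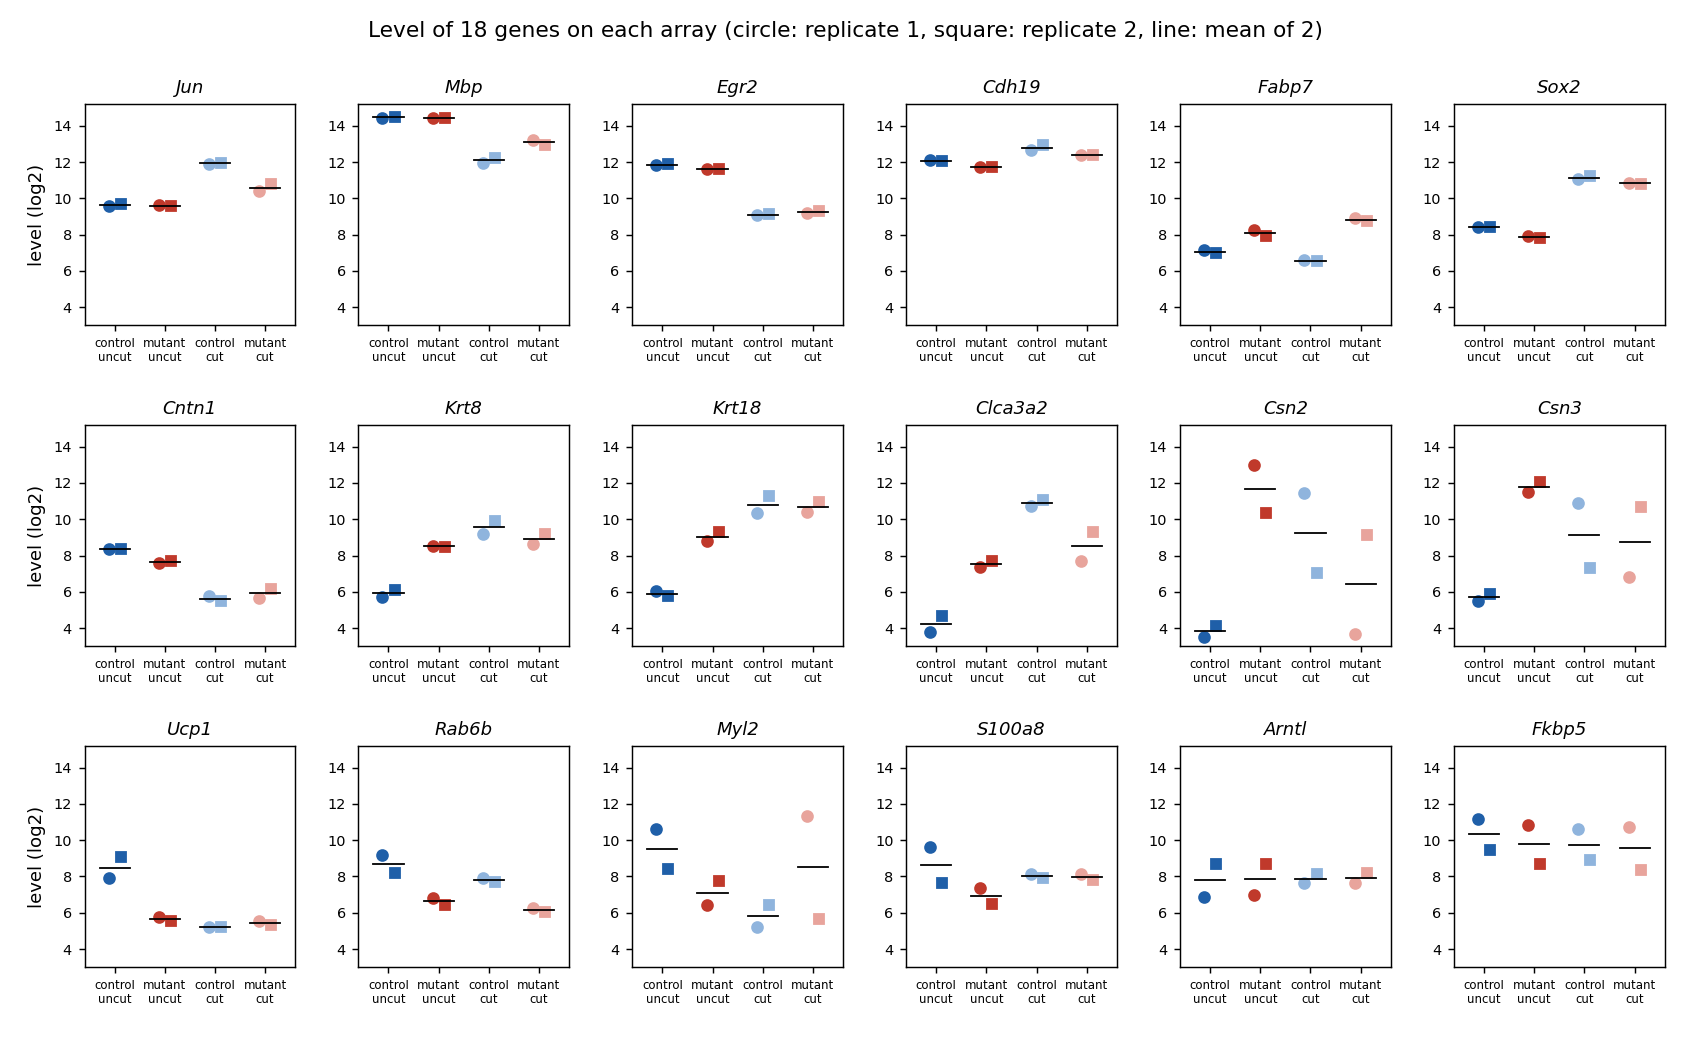
Level (y axis, log2) of 18 genes on each of the 8 arrays, by group (x axis), with replicate 1 as a circle, replicate 2 as a square and the mean of both as a line. Jun and Mbp differ by -0.04 and -0.05 between the uncut groups and Egr2 by -0.27, Csn2 and Csn3 are high on both mutant uncut pools and on 1 pool of each cut group, and Arntl and Fkbp5 split by replicate number in both genotypes.

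The other higher genes form small sets, and Aqp5 among them is also a member of the mammary gland list. Antibody genes of plasma cells were higher with wide error: Igha read 9.08 and 9.71 in control and 10.03 and 11.80 in mutant nerve (1.52, 95% interval -0.22 to 3.27), Jchain differed by 1.14 and Igkv8-30 by 1.30, while Xbp1, which secretory cells of many kinds use, differed by -0.01. A list of 7 plasma cell genes, written after these values had been seen, had 5 measured, 4 positive and 1 negative. Its counts therefore support nothing by themselves. Mzb1 and Tnfrsf17 of that list did not pass the filter on low values. Mzb1 read 6.41 and 6.30 in control and 6.47 and 6.38 in mutant nerve. Tnfrsf17 read 5.98 and 6.06 against 6.09 and 5.97. The antimicrobial lipocalin Lcn2 read 7.61 and 6.83 against 9.51 and 10.01 (2.54). For Igha, Jchain, Igkv8-30 and Lcn2 all mutant pools are above all control pools. Fcgbp, a mucus protein (2.00), the homeobox genes Irx2 (1.81) and Irx3 (1.11), the aldolase Aldoc (1.75) and the water channel Aqp5 (1.21), known from glands, were also over 2-fold apart. The rest of the 26 were Smim22 (1.43), D17H6S56E-5 (1.39), Gys2, the glycogen synthase of liver (1.27), Ly6d (1.10) and Gdpd3 (1.06). For each of these the mutant pools lay above the control pools. Ly6d passed the filter on low values only through the mutant uncut pools, where it is high, so its order supports little by itself. Aqp5 was called higher in mutant cut nerve as well (1.79, adjusted p = 0.0319), with 8.34 and 8.41 against 6.77 and 6.40.

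Among the 15 lower genes, Ucp1 had the smallest p-value. It passed the filter on low values only through the control uncut pools, where it is high, so its p-values support little by themselves. Ucp1 is the uncoupling protein of brown and beige fat, and it read 7.89 and 9.08 in control and 5.74 and 5.54 in mutant nerve (-2.84, SE 0.33, 95% interval -3.60 to -2.08, limma adjusted p = 0.130). It passed without control uncut replicate 1 (adjusted p = 0.0019) and without control uncut replicate 2 (adjusted p = 0.0294), fits in which the remaining control pool is assumed to vary like the other groups. Cidea, a lipid droplet protein of the same fat, read 8.56 and 8.63 against 7.64 and 7.45 (-1.05). Both genes are higher on both control pools. Other genes of brown fat had smaller differences that did not pass: Pparg, which fat cells of all kinds use, stood at 0.34 with both mutant pools above both controls, Dio2 at -0.30 and Cox7a1 at -0.32 with overlapping pools, and Prdm16 (-0.10), Ppargc1a (-0.13) and Cox8b (-0.15) were near 0, and the general fat gene Adipoq differed by -0.03.

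Rab6b, a small GTPase of vesicle traffic known from neurons, read 9.20 and 8.19 in control and 6.82 and 6.44 in mutant uncut nerve (-2.07, SE 0.30, 95% interval -2.77 to -1.36, adjusted p = 0.304). In cut nerve it read 7.91 and 7.72 against 6.29 and 6.05 (-1.64, adjusted p = 0.0602). Mutant arrays thus lay below control arrays in both states, and neither difference passed. The uncut nerves come from operated mice, so both states may share animals and are not taken as independent repeats. A dimmer second probe set gave -0.33 in uncut nerve. Without control uncut replicate 2 the difference passed (-2.58, adjusted p = 0.0450). Sema3e, a guidance molecule, differed by -0.46 in uncut nerve (adjusted p = 0.9997) and was called lower in mutant cut nerve (-1.34, adjusted p = 0.0040). Other Sema3e probe sets gave smaller differences in uncut nerve: 0.002, -0.07 and -0.18.

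Slow muscle genes made up 6 of the 15. The slow light chain Myl2 read 10.60 and 8.42 in control and 6.43 and 7.77 in mutant nerve, and the slow heavy chain Myh7 read 8.83 and 7.15 against 5.68 and 6.53. The troponins Tnnt1 (-1.79), Tnnc1 (-1.77) and Tnni1 (-1.08) and the Z-disc protein Myoz2 (-1.19) complete the set. A list of 9 slow muscle genes, written after these values had been seen, had 8 negative members and 1 positive (Atp2a2, 0.08). Its counts therefore support nothing by themselves. For all 6 genes at least 2-fold apart the first control pool is highest of the 4 uncut pools. The first mutant cut pool was higher still for all 6 (11.35 for Myl2, 10.16 for Myh7). The 95% intervals (-6.20 to 1.38 for Myl2, -4.54 to 0.77 for Myh7) include 0. Ckm, the muscle creatine kinase, had another pattern and read 11.91 and 12.79 against 12.85 and 12.10, so that the second control and first mutant pool were high, and the median of 17 muscle genes was 0.07. S100a8 and S100a9, calcium-binding proteins of neutrophils, read 9.60 and 7.65 against 7.36 and 6.46 and 9.28 and 6.83 against 6.91 and 6.17. Again the first control pool stood highest, and for S100a9 the groups overlap. Of 11 listed neutrophil genes 4 were measured, 2 negative and 2 positive, with Ltf highest at 0.74. The remaining lower genes were Chil3 (-1.33), a chitinase-like protein of myeloid cells, Apol11b (-1.04), Rnase2a (-1.03) and Myh2, a fast heavy chain (-1.19). The last pair overlap and rest on 1 control pool each: without control uncut replicate 2 the difference of Rnase2a was 0.29, and without control uncut replicate 1 that of Myh2 was -0.29.

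Some genes differed more between pools of 1 genotype than between genotypes. Arntl (Bmal1), the positive arm of the circadian clock, read 6.86 and 8.69 in control and 6.98 and 8.70 in mutant nerve. Per2, of the opposite arm, read 8.63 and 7.47 against 8.58 and 6.86, and Dbp, a clock output, read 11.64 and 10.67 against 11.58 and 10.99. Replicate 1 and replicate 2 thus differ alike in both genotypes, with Arntl low where Per2 and Dbp are high. The glucocorticoid targets Fkbp5 (11.20 and 9.48 against 10.86 and 8.68) and Zbtb16 (12.20 and 10.49 against 11.67 and 9.61) split by the same numbers. Genotype differences of these genes were 0.06 for Arntl, -0.33 for Per2 and -0.56 for Fkbp5, each with an interval that includes 0. The labels give no collection times.

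Genes with the next smallest p-values, named by rule, were modest in size. Higher were Trps1, a transcription factor of bone and gland (0.90), Enpp3 (0.67) and Cdca7 (0.61, read at 6.17 and 6.15 against 6.74 and 6.81). Lower were the receptor Mrgprg (-0.91), the chromatin remodeller Chd5 (-0.49) and Zfp180 (-0.45). In all 6 the mutant and control pools did not overlap, and their adjusted p lay between 0.304 and 0.9997. Picking by smallest p makes such a count likely in advance. Over all genes the groups did not overlap for 17.9% with the mutant higher and for 9.25% with it lower. Chd5 passed the filter on low values only through the control uncut pools, where it is high.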

How the data were processed

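Each of 8 single-colour Affymetrix arrays has 45101 probe sets with 1 log2 value each. The deposited log2 values were made by RMA with affy, per the submitters' processing notes, a method that equalises distributions and compresses differences of dim probe sets; no version, detection call or scan date is stated, and batches were not tested. Array medians lay between 6.59 and 6.65, and the number of arrays limits the precision. Symbols came from the platform annotation (34958 probe sets with 1 symbol, 932 with several, 9211 with none). Probe sets above the median of their array on at least 2 arrays were kept, and the one with the highest mean stood for its gene, which left 12093 of 18193 genes. With R 4.3.3 and limma 3.58.1 each group's mean was fitted over all 8 arrays (4 residual and 3.59 prior degrees of freedom); adjusted p-values are limma's after Benjamini-Hochberg over all genes, and the model was tested on simulated data. Groups came from the labels. The genes named are Jun, the 8 of smallest p in each direction, genes marked in the lists for their role, and, added after their values were seen, all genes at least 2-fold apart. The comparison, its members and all lists were chosen with earlier results of these data known. The lists of mammary gland, brown fat, slow muscle and plasma cell genes were written after the values of these arrays had been seen. Alternatives were other filters, probe set rules, normalisations, variance models, the replicate block, fewer arrays and each array left out.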

Additional observations from a re-analysis of the deposited data

Results flagged for a closer look

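In 7 of the genes named above the difference between mutant and control pools was not the same in uncut and cut nerve by limma's interaction test. The genotype difference of uncut nerve minus that of cut nerve was 3.24 for the keratin Krt8 (adjusted p = 0.0365), 5.66 for the channel regulator Clca3a2 (adjusted p = 0.037), 1.13 for the protease Adamts1 (adjusted p = 0.0365) and -2 for the potassium channel Kcnj10 (adjusted p = 0.0443). It was -2.65 for Cdh1, 1.64 for Btc and 2.05 for Ucn2 (adjusted p = 0.0365 each). For Kcnj10, Cdh1, Btc and Ucn2 the uncut part lay between -0.21 and 0.38, and genotype was called in cut nerve. Kcnj10 passed the filter on low values only through the mutant cut pools, where it is high.

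Probe sets without exactly 1 gene symbol lay outside the comparison of genes. Of 3219 such probe sets above the filter, 7 were at least 2-fold higher and 2 at least 2-fold lower in mutant uncut nerve, and 0 passed. The largest differences were 2.75 (6.13 and 7.10 in control, 9.12 and 9.60 in mutant nerve) and 2.38, from a pair of probe sets that carry no symbol. A probe set annotated to both Clca3a2 and Clca3a1, differed by 1.79, the direction of Clca3a2 itself.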

How the results depend on the processing

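The count of 0 genes called held with no filter, a filter at the 75th percentile, median centring, a further quantile normalisation, trended and robust moderation, an unmoderated statistic and array weights. It became 1 with probe sets averaged per gene and 1 with probe sets as units (Krt8 both times), 4 with the replicate block and 9 with the 4 uncut arrays alone; dropping the 2 cut arrays with more milk gene signal, an alternative added after seeing the data, gives the same fit and 9. All of these calls were higher in the mutant. Leaving out 1 array gave 0 to 2 calls, 0 to 2 higher (Krt8 and Krt18, without either control cut pool) and 0 to 2 lower (Ucp1 without control uncut replicate 1, Ucp1 and Rab6b without replicate 2). Where an uncut array is left out, the lone pool is assumed to vary like the other groups.

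Genes at least 2-fold apart numbered 25 with the stricter filter, 66 with probe sets as units, and 41 to 74 with 1 array left out. Intervals within 2-fold numbered 17828 of 18193 without a filter, 7410 of 7644 with the stricter one and 23492 of 24162 probe sets, since these fits test other numbers of features. Jun stayed between -0.10 and 0.08 and never passed. Replicate numbers were not taken to pair the pools: the labels do not say what they mark, and with 2 pairs the deviations of same-numbered uncut arrays correlated with r = 0.143 (0.0226 to 0.340 over the 6 pairs of groups). The block's 4 calls were Krt8, Krt18, Fabp7 and Clca3a2. Of the 128 genes named 57 moved by more than the spread between replicates in at least 1 setting. Among those at least 2-fold apart 1 changed sign, Rnase2a, at 0.29 without control uncut replicate 2; it passed in no setting. Dim probe sets limit what differences at low level can show.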
